A study of Drosophila melanogaster with 4 samples.

Results

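The leg axis genes Dll, dac and hth encode transcription regulators that divide the insect leg from tip to body wall, and all 3 lay under broad H3K27me3 in whole larvae of Drosophila melanogaster. They were chosen by name, as genes active in parts of the imaginal discs, and with earlier results of these data known. Each was given a fixed window on FlyBase release 5 of the genome. The windows were 2R from 20660000 to 20740000 for Dll, 2L from 16430000 to 16520000 for dac and 3R from 6240000 to 6480000 for hth, or 80 kb, 90 kb and 240 kb. A region of significant enrichment, called a cluster here, was counted when it shared at least 1 bp with a window. This gave 26 of the 2510 clusters of ChIP replicate 1, 7 of the 1819 clusters of replicate 2 and 8 of the 4966 clusters of the list deposited for the series as a whole, called the combined list.

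The libraries came from wild-type Oregon-R larvae at the 3rd instar, with no treatment named. Chromatin was fixed with formaldehyde and precipitated with a mouse monoclonal antibody against histone H3 trimethylated at lysine 27. There were 2 ChIP libraries and 2 input libraries, and the inputs were not analysed here. The ChIP libraries were numbered as replicates in their titles, and nothing says whether they came from separate larval collections. The animals were taken whole, so cells that carry the mark at a gene and cells that lack it cannot be told apart. Read depth behind the lists is unknown. Replicate 2 had fewer and wider clusters than replicate 1, with 15.1 Mb against 12.7 Mb covered, and its part in the differences between replicates was not tested. The use of 2 libraries of 1 condition allows no test: even a paired exact test could not give a p below 0.5. Values of the replicates are therefore given side by side, with their SD.

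H3K27me3 is placed by Polycomb repressive complex 2, whose subunit Enhancer of zeste is the methyltransferase, and it is bound by the chromodomain of Polycomb. It spreads over developmental regulators in cells where they are silent. In the leg imaginal disc, hth is active in the proximal part, dac in a medial ring and Dll in the distal part. Homothorax is a homeodomain protein of the MEIS family that carries Extradenticle into the nucleus, Dachshund is a nuclear cofactor, and Distal-less is a homeodomain protein needed for all distal limb structures.

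Clusters covered most of every window and nearly all of every gene. For hth the covered share of the window was 87.9% in replicate 1 and 95.5% in replicate 2 (91.7% ± 5.43, SD, n = 2). For Dll it was 68.8% and 69.3% (69.1% ± 0.336), and for dac 67.7% and 67.8% (67.7% ± 0.134). With these limits the hth window stood above the other windows in both libraries by more than the spread between replicates. How much unmarked flank each window takes in enters this order. The 42.3 kb of the Dll window below the gene were covered at 41.1% and 42.0% in replicates 1 and 2. The 34.0 kb of the dac window above the gene had 18.3% and 14.9%. Over gene spans hth was instead the lowest, with mean coverage of 97.3% against 100% for Dll and dac. In the windows, Dll stood 1.16 and 1.45 percentage points above dac, a small gap whose direction turns with the window limits. The order was the same in the combined list over these windows, with 96.7% for hth, 69.1% for Dll and 69.0% for dac, the last pair being almost equal there. With each window widened by 50 kb on both sides, mean coverage was 41.7% for Dll, 56.9% for dac and 75.0% for hth.

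These shares were far above those of the surrounding arms, which is a description, since the genes were chosen with earlier results known. The arm-wide share was 10.6% ± 1.52 on 2R (SD, n = 2), 12.5% ± 1.64 on 2L and 13.3% ± 1.04 on 3R. The Dll window was covered 7.22 and 5.93 times as densely as 2R in replicates 1 and 2. The ratio was 5.97 and 4.97 for dac against 2L, and 6.99 and 6.81 for hth against 3R. Within the spans of the genes themselves, coverage was 100% in all 3 lists for Dll (20.8 kb) and dac (19.5 kb). For hth, which spans 132.0 kb, it was 95.5% in replicate 1, 99.1% in replicate 2 and 99.5% in the combined list. Gene spans come from the RefSeq annotation of release 6, placed on release 5 with a fixed shift per arm. That table gives no strand, so gene ends are called low and high by coordinate.

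**Figure D1:**
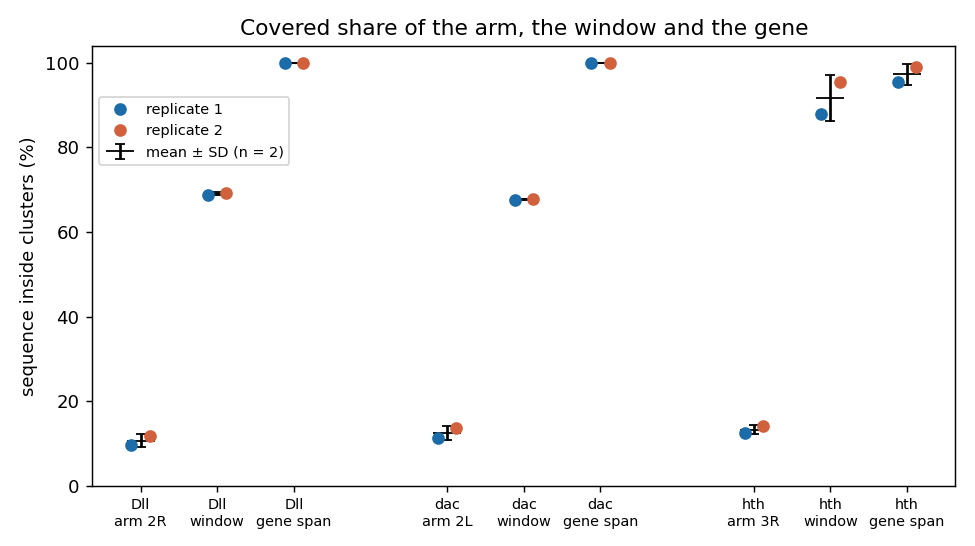
Share of sequence inside H3K27me3 clusters (percent, y axis) for the chromosome arm, the window and the gene span of Dll, dac and hth; points are the replicates, and bars give mean ± SD (n = 2). Arms lie between 9.53% and 14.0%, windows between 67.7% and 95.5%, and gene spans between 95.5% and 100%.

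At hth, the proximal gene, the mark formed the widest of the 3 marked regions. In the combined list a cluster of 144.7 kb (3R, 6262852 to 6407595) and a cluster of 92.6 kb (6408236 to 6500805) held the gene, 640 bp apart. They ranked 10 and 28 by width among all 4966 clusters. Replicate 2 had a cluster of 71.3 kb (6263485 to 6334813) and one of 164.8 kb (6336001 to 6500798), the second of which was its 6th widest. Replicate 1 broke the same region into 17 clusters. The widest of them measured 70.4 kb (6336810 to 6407179), and 8 were under 5 kb.

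The other replicate 1 clusters of 5 kb or more in the hth window fell on both sides of that piece. Those on the low side ran from 6263406 to 6269129, from 6269183 to 6276387, from 6289419 to 6306757 and from 6307429 to 6323834. On the high side they ran from 6408849 to 6434901, from 6438601 to 6460779, from 6461184 to 6469838 and from 6473894 to 6500657. The gaps between pieces were short. Of the 20 gaps between replicate 1 clusters of the window, 14 were under 1 kb, and the median was 542 bp. Replicate 2 filled 17 of the 20 completely.

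No break inside hth was common to all 3 lists. Near the low end of the gene, both replicate lists had a gap, spanning 6333559 to 6336809 in replicate 1, and in replicate 2 spanning 6334814 to 6336000. The second gap lay 1.53 to 2.72 kb inside the gene and fell wholly within the first, and the combined list had no gap there. Further in, replicate 1 had a gap from 6407180 to 6408848, in which the 640 bp gap of the combined list lay. Replicate 2 was continuous across it. The sources used here do not give the way the combined list was made.

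Coverage at hth was lower on the low-coordinate side of the gene than in it. The 93.3 kb of the window on that side were covered at 75.9% in replicate 1 and 89.8% in replicate 2. The gene had 95.5% and 99.1%, and the 14.7 kb on the high side had 94.8% and 100%. In 10 kb steps along the window, replicate 1 covered 12 of 24 steps completely and replicate 2 covered 20 of 24. The lowest step was the outermost on the low side, with 13.2% in replicate 1 and 44.0% in replicate 2. There the marked region thinned into short clusters, with a further cluster of 5 kb or more in replicate 2 (6250768 to 6260341) and in the combined list (6251077 to 6260341). Replicate 1 had 3 narrow clusters in that stretch, of 1.56 kb, 1.44 kb and 2.73 kb.

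At dac, the medial gene, the cluster extended well beyond the window on one side and stopped soon after the gene on the other. The combined list had a cluster of 116.1 kb (2L, 16374950 to 16491041), its 19th widest. Replicate 2 had a cluster of 115.6 kb (16375438 to 16491058), its 17th widest. Only 52.6% of the combined cluster and 52.8% of the replicate 2 cluster lay inside the window. Replicate 1 held 8 clusters in the same region and covered 89.8% of it. In the window its clusters of 5 kb or more were 42.6 kb (16404352 to 16446947), 11.4 kb (16448231 to 16459584) and 31.2 kb (16459623 to 16490791) wide. The last contained the whole of dac, with 6.89 kb to spare on the low side and 4.79 kb on the high side. Gaps of 1283 bp and 38 bp separated these pieces, and both were filled in replicate 2 and in the combined list.

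At Dll, the distal gene, the mark formed 1 unbroken cluster in every list. It measured 72.6 kb in replicate 1 (2R, 20684947 to 20757500), 73.2 kb in replicate 2 (20684567 to 20757764) and 73.0 kb in the combined list (20684699 to 20757692). The replicates differed by 380 bp at the low edge and by 264 bp at the high edge. The cluster began 17.4 kb and 17.8 kb below the gene in replicates 1 and 2, and ended 34.3 kb and 34.6 kb above it. The window held 75.9% and 75.7% of the cluster, which ran 17.5 kb and 17.8 kb past the window's high edge. The nearest other cluster on the low side was 60.3 kb away in replicate 1 and 158.4 kb away in replicate 2, and on the high side 19.1 kb and 161.5 kb away. In the combined list the nearest clusters lay 59.6 kb below and 8.09 kb above.

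**Figure D2:**
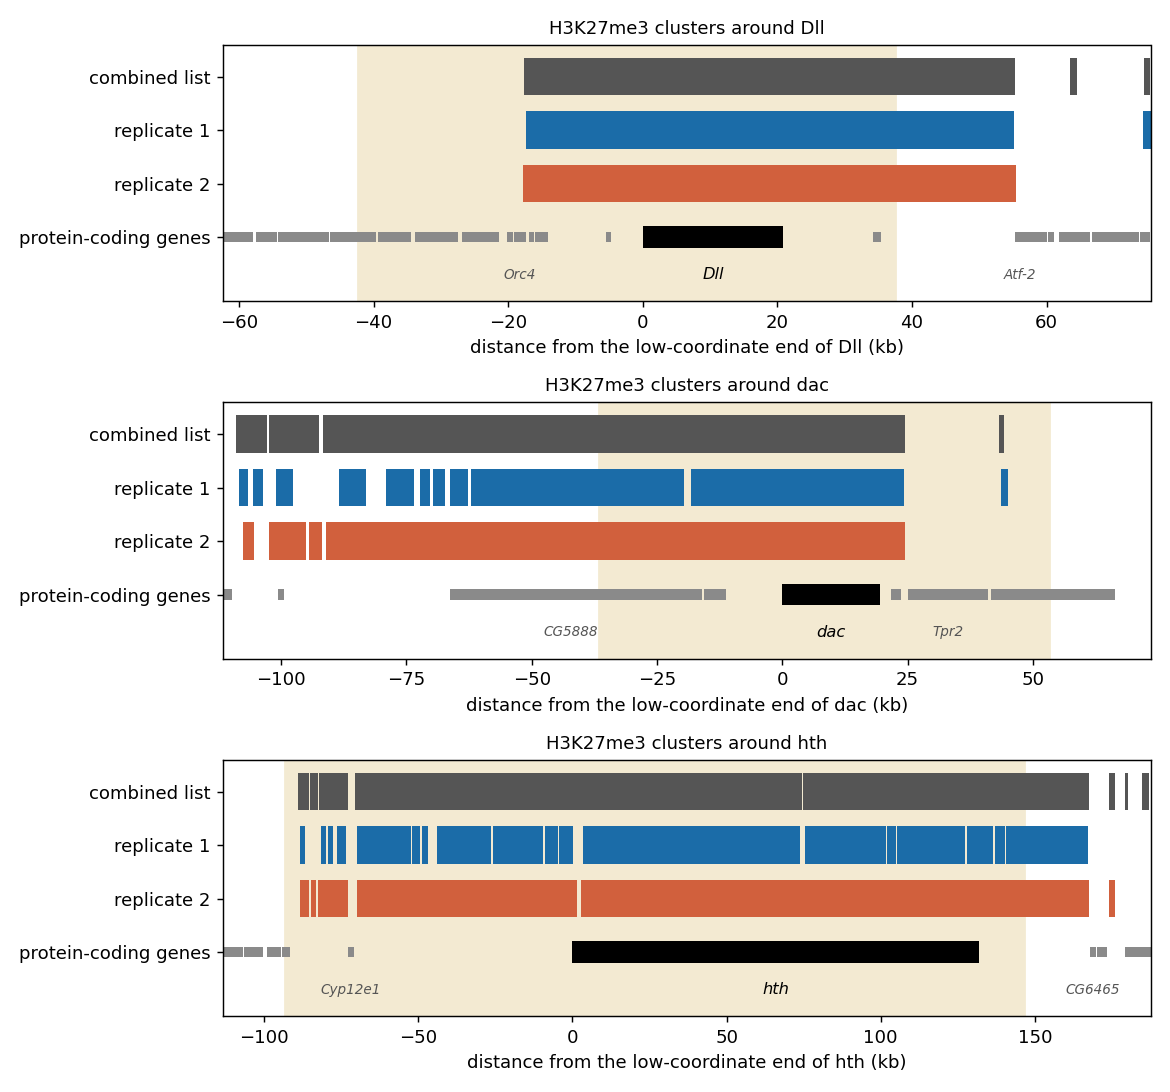
H3K27me3 clusters (filled bars) in the combined list and the replicates around Dll, dac and hth, with protein-coding gene spans below (black, the named gene; grey, others) and the window shaded; the x axis is distance in kb from the gene's low-coordinate end. Dll lies in 1 cluster in each list, while replicate 1 has 8 pieces where the combined list has 1 cluster at dac, and 17 where it has 2 at hth.

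The replicates shared most of the marked sequence at each gene. Bases in both replicates made up 99.3% of the bases in either at Dll, 95.2% at dac and 91.9% at hth, against 59.7% over 2R, 67.9% over 2L and 70.9% over 3R. The arm values take in the many narrow clusters, and no arm value for wide clusters alone was computed. The higher overlap is therefore not shown to be particular to these genes. Nearly all replicate 1 sequence in the windows lay inside replicate 2: 100% at Dll, 97.7% at dac and 99.96% at hth, where 79 bp lay outside. Replicate 2 had 18.5 kb of its own at hth, 1.59 kb at dac and 0.380 kb at Dll. The difference between the replicates at hth was therefore sequence covered in replicate 2 only.

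Of the 26 replicate 1 clusters in the windows, 25 shared sequence with replicate 2, where the share over the full list was 62.5%. The 13 of 5 kb or more were all found, as were all such clusters of the list (100%), and so were 12 of 13 narrower ones, against 56.0% of narrower clusters in the list. In the other direction, replicate 1 held 6 of 7 replicate 2 clusters, against 51.2% for the full list. Those of 5 kb or more numbered 5 and were all found (94.6% in the list), and 1 of 2 narrower ones was found (38.0%). In the combined list, 6 of 8 clusters shared sequence with both replicates, against 17.0% of all its clusters. Of the 8, 5 were of 5 kb or more, as were only 553 of the 4966 in the list. No share by width was computed there, so that contrast is not separate from width. Several of these narrow replicate 1 clusters are pieces inside wide replicate 2 clusters, so their being found follows from the width of the latter.

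The genes differed in how far replicate 1 was broken up. Dll was the case of 1 replicate 1 cluster inside 1 replicate 2 cluster, a pattern seen in 13 of the 67 replicate 2 clusters of 50 kb or more (19.4%). The dac cluster held 8 replicate 1 clusters, and the hth clusters held 10 (71.3 kb) and 7 (164.8 kb). Over the 67, the median was 3, the highest count was 24, and 24 clusters (35.8%) held 7 or more, a limit chosen after the counts were seen. By count alone, breakage at dac and hth was thus above the median, but these counts take no account of width. Per 10 kb, the pieces came to 0.692 at dac, 1.40 and 0.425 in the 71.3 kb and 164.8 kb hth clusters, and 0.137 at Dll. No such rate was computed over the 67. Replicate 1 covered 89.7% and 97.3% of the hth clusters, 90.2% of the dac cluster and 99.1% of the Dll cluster, against a median of 96.1% over the 67.

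The deposited score, a value per cluster whose unit the sources used here do not give, put the genes in the same order in each list. It is used only inside a list. Weighted by covered bases in the window, the score in replicate 1 was 1.90 for Dll, 1.21 for dac and 0.996 for hth. In replicate 2 it was 2.68, 1.91 and 1.55, and in the combined list 2.36, 1.56 and 1.31. The gene with the smallest marked region thus had the highest score. The replicates gave the same order, and the combined list is not independent of them.

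Among clusters of 50 kb or more, Dll scored high and hth scored low. The Dll cluster ranked 8 of 43 by score in replicate 1, 10 of 67 in replicate 2 and 7 of 68 in the combined list. The 70.4 kb hth piece of replicate 1 had the lowest score of the 43, at 1.10 against a median of 1.67. The hth clusters of replicate 2 ranked 52 and 65 of 67, with scores of 1.77 and 1.28 against a median of 2.24. The combined hth clusters ranked 50 and 58 of 68. The dac cluster ranked 48 in both replicate 2 and the combined list, and replicate 1 had no dac cluster of 50 kb or more. Against all clusters of a list, of any width, the best score at each gene was still high. The best rank at hth was 137 of 2510 in replicate 1 and 129 of 1819 in replicate 2, and the best rank at dac was 105 and 114. In replicate 1 these were the best of 21 clusters at hth, a 22.2 kb piece, and of 4 at dac. Of the hth clusters, 15 of 21 in replicate 1 and 3 of 5 in replicate 2 reached the median score of their list. That median splits each list evenly by definition, so 3 of 5 is near the share of the full list. Width also enters, since the median score was 0.663 and 0.665 over all clusters and 1.05 and 1.10 over those of 5 kb or more. For Dll, with 1 cluster in each list, the rank among all clusters was 34 and 27 in replicates 1 and 2.

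**Figure D3:**
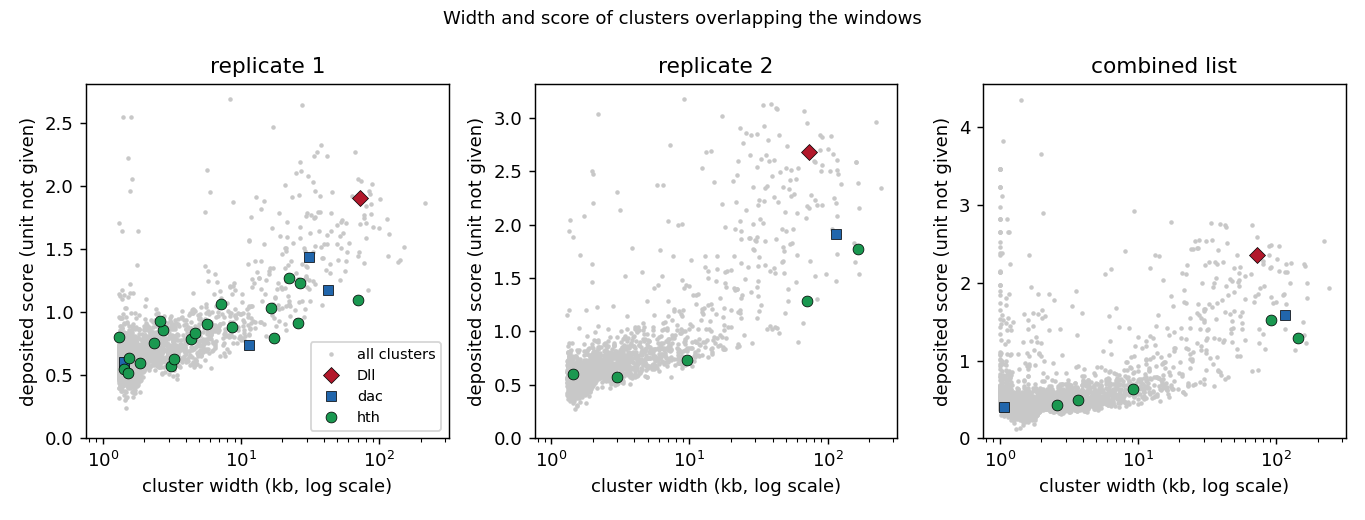
Width (kb, log x axis) and deposited score (y axis, unit not given) of every cluster in each list (grey), with clusters overlapping the windows of Dll (diamonds), dac (squares) and hth (circles). Scores are read within a panel only. Among clusters of 50 kb or more, Dll lies above the median score in each list, and the dac and hth clusters of that width lie below it. Replicate 1 has no dac cluster of that width.

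The outer edges of the marked regions were set by the combined clusters at each gene, and the replicate edge nearest to each was taken. Since replicate 1 was broken up at dac and hth, its matched edge can belong to a piece away from the gene. The clusters that touch the gene itself ended 84185 bp apart between the replicates at the low side of dac, 65445 bp apart at the low side of hth and 30960 bp apart at its high side. On the high side, the edge at dac lay at 16490791 in replicate 1 and 16491058 in replicate 2, 267 bp apart. The next protein-coding gene, Tpr2, which encodes a tetratricopeptide repeat protein, began 0.499 kb above the combined edge and had 0% of its span covered in every list. At hth the matched high edges, in replicate 1 that of a separate piece, lay 141 bp apart, and the next gene, CG6465, began 0.477 kb above the combined edge with 0% covered. At Dll the high edge lay at the low end of Atf-2, a gene for a bZIP transcription factor, which had 0% covered in replicate 1 and 10.8% in replicate 2.

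On the low side, the Dll cluster began inside Orc4, a gene for a subunit of the origin recognition complex, in replicate 2 and the combined list, and just above it in replicate 1. Orc4 had 0% of its span covered in replicate 1, 21.1% in replicate 2 and 13.2% in the combined list. Beyond it, in the window or across its edge, lay 11 genes with 0% in all 3 lists, 9 of them protein-coding. They included egg, which encodes a methyltransferase for lysine 9 of histone H3, TyrRS-m, a mitochondrial tyrosyl-tRNA synthetase, and key, a subunit of the kinase complex of the immune deficiency pathway. The matched low edge at hth lay at 6263406 in replicate 1, the start of a separate piece of 5.72 kb, and at 6263485 in replicate 2, 79 bp apart. In the break below it lay Cyp12e1, a cytochrome P450 gene, with 0% of its 1.92 kb covered in every list. At dac the low edge was less sharp. The nearest replicate 1 edge to the combined edge was 3.13 kb away, and replicate 2 had another cluster 0.810 kb below its dac cluster.

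Besides the named genes, the marked regions held few others. These were picked for lying inside combined clusters, so their coverage is a description and largely follows from that choice. The combined Dll cluster contained 4 more protein-coding genes, CG12849, CG3611, CG42851 and CG3650, each 100% covered in all lists. The dac cluster contained 5 more: CG5888, Nepl8, a gene of the neprilysin-like family of peptidases, and the neighbours Idgf1, Idgf2 and Idgf3, which encode secreted chitinase-like growth factors of imaginal discs. Idgf1, Idgf3 and Nepl8 were 100% covered in every list. Idgf2 had 71.7% in replicate 1 and 100% in the other lists, since a replicate 1 gap fell in it, and CG5888 had 96.2% and 100%. The 2 combined clusters that held hth, over 238.0 kb, contained no other protein-coding gene. They held 3 long noncoding RNA genes, the antisense gene asRNA:CR44018 and mir-4944, a microRNA gene inside hth. In replicate 2 all of these were 100% covered. In replicate 1, lncRNA:CR44939 had 0%, lncRNA:CR44955 had 49.5% and asRNA:CR44018 had 92.2%. The separate combined cluster below them, of 9.3 kb, held the protein-coding gene CG46270. It had 44.4% covered in replicate 1 and 100% in the other lists.

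Other genes that pattern the leg were covered like Dll, dac and hth. A list of 29 such genes on 2L, 2R and 3R was used, of which 28 were placed. A gene counted as covered when at least 50% of its span lay in clusters. By this measure 26 of 28 were covered in both replicates, the 3 named genes among them, against 4.88% of the 8871 protein-coding genes placed on these arms. In replicate 1 the count was 26 of 28 (background 6.12%), in replicate 2 it was 27 (7.11%) and in the combined list 27 (11.0%). Without the 3 named genes, 23 of 25 were covered in both replicates. The counts were then 23 in replicate 1, 24 in replicate 2 and 24 in the combined list. The median gene of the list was 100% covered in each replicate, with or without the 3 named genes. The median over all placed genes was 0% in each. Many of the list are known Polycomb targets and were chosen with earlier results in view. Some share a cluster, such as odd, drm and sob, so the widest combined cluster at each of the 27 genes covered in that list came to 22 distinct clusters.

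Among the other proximal genes, tsh and tio, which encode related zinc-finger proteins, were 100% covered in both replicates. Of 5 more medial genes, nub and pdm2, which encode POU proteins, and grn, which encodes a GATA factor, were 100% covered. The lowest medial gene was rn, a zinc-finger gene of the tarsus, at 36.0% in replicate 1 and 61.5% in replicate 2. Of 3 more distal genes, the homeobox genes al and C15 were 100% covered, and ap, a LIM-homeobox gene, was lowest at 78.2% and 95.7%.

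All 8 genes of the signals that set up the axis were covered in both replicates. The ligand gene wg and the homeobox genes en and inv had 100%, and hh, another ligand gene, had 99.7% and 100%. The lowest was dpp, which encodes a BMP ligand, with 73.2% and 87.1%. Among 7 genes of joints and growth, odd, drm, sob and esg, all zinc-finger genes, had 100%. The Notch ligand gene Ser had 74.7% and 95.7%, and fj, for a Golgi kinase, 89.5% and 95.6%. The exception was ds, for a large cadherin, with 0% in replicate 1 and 1.77% in replicate 2.

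**Figure D4:**
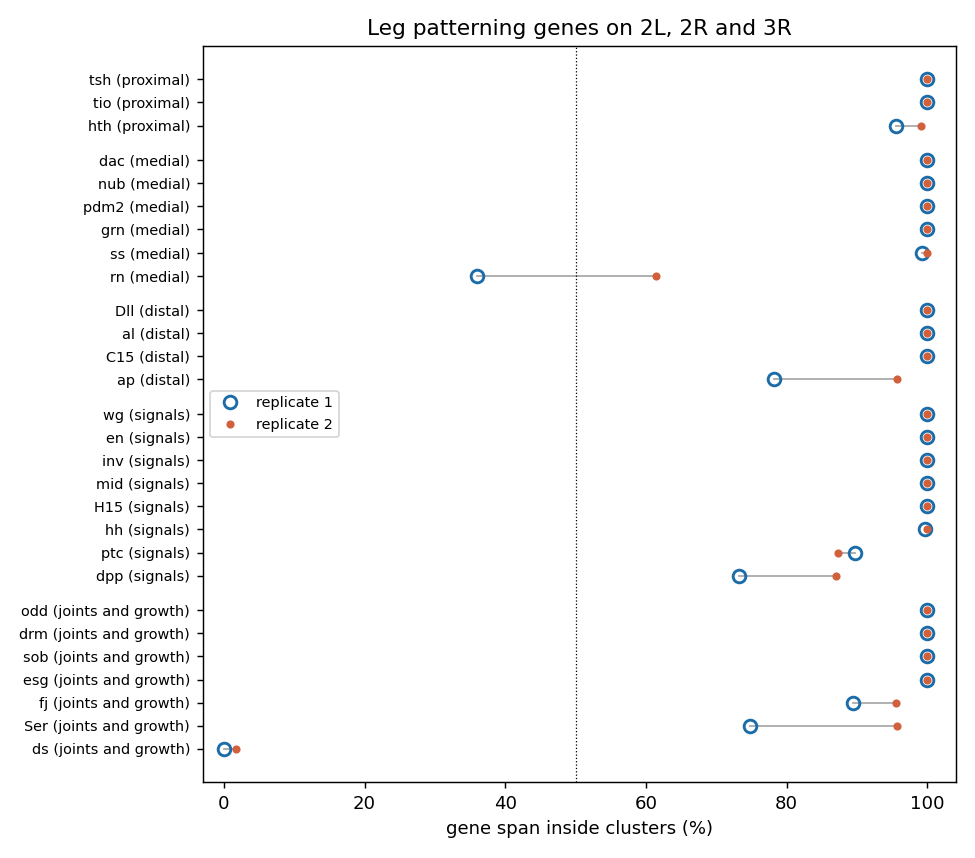
Share of each gene span inside H3K27me3 clusters (percent, x axis) for 28 leg patterning genes by role, in replicate 1 (open circles) and replicate 2 (filled circles); the dotted line marks 50%. Dll and dac sit at 100% in both replicates and hth at 95.5% and 99.1%, while rn lies on both sides of 50% and ds near 0%.

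Within this list, Dll also had a high score and hth a low one. Weighted over the gene span, Dll ranked 4 of the 27 genes with any cluster in replicate 1, below only odd, drm and sob, which share 1 cluster. The dac gene ranked 17 and hth ranked 23. A total of 22 of the 28 genes touched exactly 1 cluster in each replicate, Dll and dac included, though some of the 22 reached beyond it. Some of the 22 share a cluster, and no such count was made over all placed genes. The hth gene touched 6 clusters in replicate 1, the highest count of the list, which Ser also reached with a span of 22.2 kb.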

How the data were processed

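Per the file headers, the deposited lists hold regions of significant enrichment on FlyBase release 5. Reads were handled with Bowtie 0.12.7, per the submitters' processing notes. The caller, its threshold, the use of input and the making of the combined list are not stated in the sources used here. Each region carries a deposited score of unknown scale. Depth is unknown, so no interval is given.

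Clusters overlapping the windows by at least 1 bp were taken from the 3 lists, and covered bases were counted. Of 11383 genes of the RefSeq release 6 table on the 3 arms, 11315 were placed on release 5 by subtracting 0 (2L), 4112495 (2R) or 4174278 (3R); no release 5 annotation was used to check this. A planned count of gene starts was replaced by covered span, since the table has no strand. Named genes were the members, genes in and around the marked regions, and, per role, the most and least covered of the list; further list genes and the genes next to the region edges were chosen after their values were seen. Members and lists were chosen with earlier results of these data known. Coverage and overlap were tested on simulated data, where 0 of 50 pairs of lists differed from counting single bases. Alternatives were score and width filters, joining of close clusters, other window limits and other coverage limits. Python 3.11.15, numpy 2.4.6, pandas 2.3.3 and matplotlib 3.10.9 were used.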

Additional observations from a re-analysis of the deposited data

How the results depend on the processing

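Window limits moved the covered shares most. With the window widened by 50 kb on each side, mean coverage was 41.7% for Dll, 56.9% for dac and 75.0% for hth. It was 43.1%, 60.8% and 79.9% in the combined list, and replicate overlap was 93.4% for Dll and 89.9% for dac. Over gene spans, mean coverage was 100% for Dll and dac, as were combined coverage and overlap, and 97.3% for hth. Over the whole marked block, an alternative chosen after seeing the data, overlap at dac was 89.1%. With clusters of 5 kb or more, or those at or above the median score, dac had 67.0% coverage, 67.8% in the combined list and 97.4% overlap. The width filter gave 84.4% and 80.0% for coverage and overlap at hth. Joining clusters closer than 5 kb gave dac 68.5% coverage and 97.3% overlap, and hth 97.7% overlap. It widened the widest replicate 1 cluster to 112.7 kb at dac. At hth the widest became 249.0 kb, 255.8 kb and 256.5 kb in replicate 1, replicate 2 and the combined list. Joining below 1 kb gave 238.0 kb at hth and 133.6 kb at dac in the combined list, and 52.7 kb at dac in replicate 1. Replicate 1 then had 11 clusters in the windows and the combined list 5; joining below 5 kb left 5, 3 and 4 in replicate 1, replicate 2 and the combined list. With clusters of 5 kb or more the counts were 13 in replicate 1 and 5 in the combined list. These changes follow from the settings' own construction. Without either replicate, coverage ran from 68.8% to 69.3% for Dll, 67.7% to 67.8% for dac and 87.9% to 95.5% for hth. The count of covered leg genes in both replicates ran from 21 at a limit of 90%, added after seeing the data, to 27 for any part. The share over all placed genes was not computed at these limits, so these counts have no background. Of 103 alternative values, 64 stayed within the replicate SD, or within 1.5 times for counts. Values without either replicate always lie within the SD of 2 values, so that part of the tally was fixed in advance. The combined share and the overlap were judged by the SD of the replicates' covered share, which is not their own spread. Widths were judged by the SD of the replicates' widths, which was large at dac and hth. No paired analysis was possible because inputs were not analysed here and groups were not compared. The planned count of gene starts was not run.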

Other observations

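Some narrow clusters in the windows were not shared by all lists. Above dac, replicate 1 had a cluster of 1.42 kb (2L, 16510243 to 16511659) that met a combined cluster of 1.06 kb (16509703 to 16510767), and replicate 2 had none there. Both lie in CG5953, of which 5.71% was covered in replicate 1 and 0% in replicate 2. Below hth, replicate 2 had a cluster of 1.43 kb (3R, 6248536 to 6249969) that met a combined cluster of 2.58 kb (6248059 to 6250637), with none in replicate 1. Each of these replicate clusters had a score below the median of its list.

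Beyond the marked regions, jhamt, which encodes the methyltransferase of juvenile hormone synthesis, lay in the stretch of clusters below the dac cluster and was 100% covered in every list. Above Dll, Ance-5, a gene of the angiotensin-converting enzyme family, had 55.1% covered in replicate 1, 0% in replicate 2 and 71.5% in the combined list. Above the hth clusters, lncRNA:CR44230 had 0% in replicate 1 and 56.2% in replicate 2. These genes were chosen after their values were seen.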
